A study of Mus musculus with 18 samples.

Results

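The cardiac fibroblast identity genes are 10 genes widely used to mark fibroblasts and their precursors in the heart: Tcf21, Meox1, Wt1, Pdgfra, Ddr2, Dpt, Fibin, Fap, Gsn and Vim. They were taken by symbol from the 51435 genes in the tables, and all 10 were among the 24804 genes tested, those whose counts totalled more than 1. The data are poly(A) RNA-seq libraries of left ventricles, 1 library per mouse, from 9 WT and 9 WWP2Mut/Mut animals. All 18 mice were on the C57BL/6J strain and all received angiotensin II (AngII), a vasoconstrictor peptide used to induce hypertension and scarring of the heart, by subcutaneous minipump at 500 ng/kg/min for 28 days from 8 weeks of age. WWP2Mut/Mut mice are homozygous for a CRISPR/Cas9 deletion of 4 bases within exon 2 of Wwp2 that shifts the reading frame of the full-length (FL) and N-terminal (N) isoforms of this E3 ubiquitin ligase but leaves that of the C-terminal (C) isoform. WT mice were their littermates. Mice without AngII were not analysed here, so the values describe the genotypes within AngII-treated hearts. The deletion is carried by every cell of the animal and the tissue is a whole ventricle, so that fewer fibroblasts and less RNA per fibroblast cannot be told apart.

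Cardiac fibroblasts arise mostly from the epicardium, the mesothelial sheet around the heart, whose cells express WT1 and then TCF21 as they move into the muscle. Resident fibroblasts keep TCF21 and the platelet-derived growth factor receptor PDGFRA, and lay down the collagens and small matrix proteins that carry the mechanical load of the ventricle. Under pressure overload some of them change into activated fibroblasts and myofibroblasts, which make more matrix and contract. MEOX1 and FAP are known from that activated state, whereas TCF21 marks the resting one.

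The libraries held 24566994 to 37451087 expected counts (median 31168997). The deposited TPM, a unit scaled per transcript length and per library, summed to between 671770 and 826381 in a mouse. Cardiomyocyte genes dominated: the 12 genes of that list summed to 48276 to 63144 TPM, and Tnnt2 alone averaged 5959 TPM in WT and 5696 TPM in WWP2Mut/Mut mice. The 28 other fibroblast genes listed summed to 961 to 1873 TPM, and the 10 identity genes to 499 to 942 TPM. Wwp2 itself was 5.09 ± 0.600 TPM (SD, n = 9) in WT and 1.72 ± 0.528 TPM (SD, n = 9) in WWP2Mut/Mut mice, with no overlap. It was the only gene called between genotypes by edgeR's quasi-likelihood test at an adjusted p below 0.05, which makes the background of calls 0.00403% of genes tested. The libraries differed in atrial transcripts. The 7 listed atrial genes other than Nppa, which stressed ventricles also express, summed to 4.70 to 19.5 TPM in 13 mice and to 99.4 to 665 TPM in WT 43-3, WT 45-1, WT 84-2, WWP2Mut/Mut 22-3 and WWP2Mut/Mut 8-2. The main results on the 10 genes are also given without these 5 mice, over the other 13, and the genotype comparison of the other lists was not run without them.

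Promoter sequence is shown first for Tcf21, which encodes a basic helix-loop-helix (bHLH) factor of the family that binds E-boxes (CANNTG), and for Fibin, Pdgfra and Dpt, the 3 members whose log2(TPM + 1) followed that of Tcf21 most closely over mice. In log2 CPM the pair with Fibin kept an adjusted permutation p below 0.05 (0.00324), and those with Pdgfra (0.0691) and Dpt (0.0723) did not. RefSeq (GRCm38.p6) gave windows of 300 bases, 250 before and 50 after each start, for 7 of the 10 genes, and the part upstream of every annotated exon is printed. Capitals mark the E-boxes. The stretches are chr10:22820175-22820393 for Tcf21 and chr2:110363184-110363243 for Fibin, both on the minus strand, and chr5:75152001-75152250 for Pdgfra and chr1:164796413-164796643 for Dpt, both on the plus strand.
Tcf21: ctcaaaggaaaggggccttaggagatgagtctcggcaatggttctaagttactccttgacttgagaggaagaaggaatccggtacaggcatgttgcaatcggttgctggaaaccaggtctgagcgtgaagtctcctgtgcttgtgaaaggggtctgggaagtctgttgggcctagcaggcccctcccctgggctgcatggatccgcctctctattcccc
Fibin: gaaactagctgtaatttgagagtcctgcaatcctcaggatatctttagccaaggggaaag
Pdgfra: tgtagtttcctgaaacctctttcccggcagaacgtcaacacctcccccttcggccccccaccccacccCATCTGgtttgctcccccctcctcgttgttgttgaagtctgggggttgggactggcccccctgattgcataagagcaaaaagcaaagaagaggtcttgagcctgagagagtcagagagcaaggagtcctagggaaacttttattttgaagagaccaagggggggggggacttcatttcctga
Dpt: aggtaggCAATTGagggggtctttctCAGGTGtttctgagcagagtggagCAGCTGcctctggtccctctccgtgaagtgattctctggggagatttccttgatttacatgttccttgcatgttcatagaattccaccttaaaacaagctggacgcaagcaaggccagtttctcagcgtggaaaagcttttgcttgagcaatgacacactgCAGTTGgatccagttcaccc

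The stretches of Tcf21 and Fibin hold no E-box, that of Pdgfra holds 1, and that of Dpt holds 4, of which 1 is CAGCTG. In the full windows, searched on both strands, Dpt had 7 E-boxes, the 3 Gsn windows 1, 3 and 2, Pdgfra 2 and Ddr2 1, against none in Tcf21, Vim or Fibin. At least 1 was found in 72.3% of all 32851 windows, so a match is common at this length. CAGCTG, itself one form of CANNTG, was in 16.3% of all windows and in those of Dpt and Gsn. The homeobox core TAAT was in 58.0% of windows and in those of Pdgfra, Gsn, Vim, Ddr2 (6 matches) and Fibin. TATAAA (13.6% of windows) was found for Dpt, Vim and Ddr2, and GGGCGG (35.7%) for Gsn alone among the 7. CAGAC (49.6%) was found for Tcf21, Pdgfra and Gsn, GGAATG (14.7%) for Fibin, and TGANTCA (7.81%) for none of them. A match is a run of letters in this window and does not show binding.

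All 10 are protein-coding genes on autosomes of GRCm38, and 5 of them are on chromosome 2: Vim (chr2:13573927-13582826), Gsn (chr2:35256380-35307892) and Wt1 (chr2:105126529-105173616) on the plus strand, and Fap (chr2:62500943-62574075) and Fibin (chr2:110360917-110363183) on the minus strand. Fibin and Tcf21 (chr10:22817281-22820174, minus strand) are compact, with 1 and 2 merged exons. Dpt (chr1:164796644-164824266, plus) and Meox1 (chr11:101877510-101894374, minus) have 4 and 3. The receptors are long genes, Pdgfra (chr5:75152292-75198215, plus) with 27 and Ddr2 (chr1:169972307-170110762, minus) with 22.

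Levels differed widely between the genes on the TPM scale. Gsn, which encodes the actin-severing protein gelsolin, was the highest at 435 TPM on average over the 18 mice, 3.12 times the level of Vim (139 TPM), the intermediate filament of mesenchymal cells. Dpt, encoding the small matrix protein dermatopontin, followed at 45.1 TPM. The ranges of these 3 over mice overlapped neither each other nor that of the gene below them. Below them came the homeobox factor Meox1 (8.99 TPM), the secreted protein gene Fibin (4.70), Tcf21 (4.58), Pdgfra (3.29), the fibrillar collagen receptor Ddr2 (2.36), the zinc finger factor Wt1 (1.78) and the cell surface serine protease Fap (1.46). Ranges of neighbours overlapped from Meox1 downwards: Meox1 was above Fibin in all 18 mice, but Fibin was above Tcf21 in only 10 of 18 and Wt1 above Fap in 12 of 18. The rarest genes rested on few reads, with 71 to 176 counts per mouse for Fap and 85 to 280 for Wt1, against 34098 to 70043 for Gsn.

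**Figure D1:**
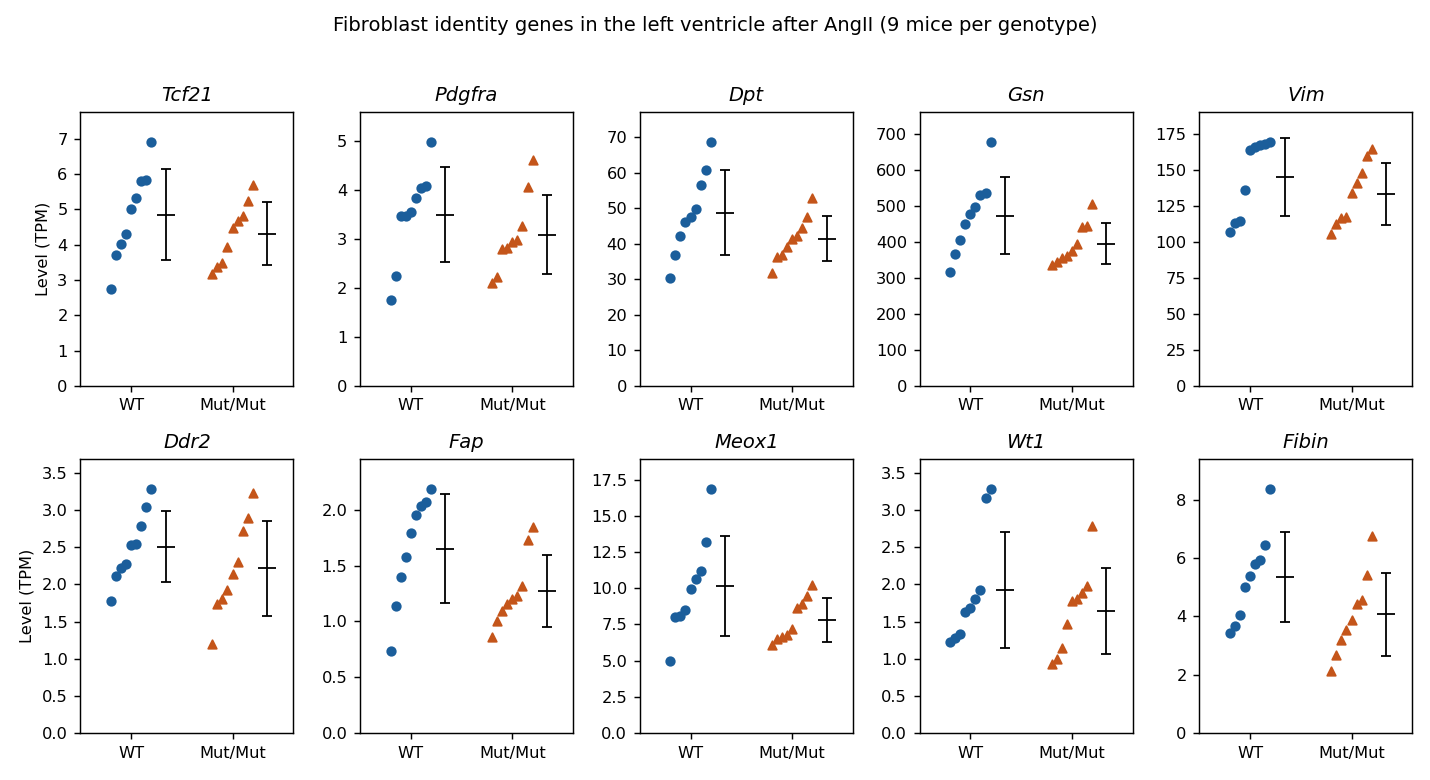
Level in TPM (vertical axes, linear from 0, scaled per gene) of the 10 fibroblast identity genes in each of 9 WT mice (blue circles) and 9 WWP2Mut/Mut mice (orange triangles), sorted within genotype, with the mean and SD in black. The genotypes overlap for every gene, and the mean of WWP2Mut/Mut mice lies below that of WT mice in all 10 panels, from 474 against 396 TPM for Gsn to 1.65 against 1.27 TPM for Fap.

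The comparison of genotypes asks whether loss of the FL and N isoforms of WWP2 goes with a change in the transcripts that mark fibroblasts. None of the 10 genes was called at an adjusted p below 0.05 by edgeR with RNA concentration and lane as covariates, and none by DESeq2 or by limma on log2(TPM + 1). At an unadjusted p below 0.05 edgeR gave 1 of 10 (Fibin), against 3.66% of all genes tested. DESeq2 gave Fibin alone as well, and limma gave Fibin and Gsn. The share of all genes at that level is not given here for DESeq2 or limma. The members were chosen with earlier results of these data known, that of Fibin included. These counts are therefore descriptions and cannot be judged against the share of all genes. All 10 log2 fold changes were negative, with a median of -0.12, where 51.9% of all genes tested were negative and their median was -0.01. This direction depended on the mice and the covariates. Without the 5 mice of high atrial level, 5 of the 10 were negative and their median was -0.01, and with the atrial level as a further covariate all 10 were negative (median -0.13). The median was -0.09 with lane as the only covariate and -0.06 without covariates, where Vim was positive. With lane only, Pdgfra was -0.04 in place of -0.15 and Ddr2 -0.03 in place of -0.14. With library totals in place of TMM the median was -0.20, against -0.09 for all genes, and by limma on log2(TPM + 1) it was -0.21, against -0.04 for all genes. The 10 genes are correlated over the same mice, as described further on, so that 10 negative values are not 10 separate observations.

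Among the transcription factors, Tcf21 ranged from 2.73 to 6.92 TPM (median 5.01) in WT mice and from 3.18 to 5.70 TPM (median 4.46) in WWP2Mut/Mut mice. There were 3 WT mice above every WWP2Mut/Mut mouse, led by WT 43-3, but the lowest of the 18 values was also WT (16-1). The log2 fold change in edgeR was -0.09 (standard error 0.123, 95% interval -0.35 to 0.17, unadjusted p = 0.460, adjusted p = 1). Meox1 ranged from 4.95 to 16.9 TPM (median 9.93) in WT and from 6.10 to 10.2 TPM (median 7.17) in WWP2Mut/Mut mice. Here 4 WT mice were above every WWP2Mut/Mut mouse, led by WT 43-3, while WT 16-1 was below all others. The log2 fold change was -0.11 (95% interval -0.44 to 0.23, adjusted p = 1 in edgeR), and on log2(TPM + 1), without covariates, the means differed by -0.30 (two-sided exact permutation test, p = 0.103). That permutation test gave p = 0.144 with TPM rescaled to the same sum in each mouse.

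Wt1, the epicardial factor, ranged from 1.22 to 3.29 TPM (median 1.68) in WT and from 0.930 to 2.79 TPM (median 1.78) in WWP2Mut/Mut mice. Its median was higher and its mean lower in WWP2Mut/Mut mice (1.64 ± 0.585 against 1.92 ± 0.778 TPM, SD, n = 9 each), since WT 45-1 and WT 25-3 stood above 3 TPM and the other 7 WT mice between 1.22 and 1.92 TPM. Its log2 fold change of -0.10 had the interval -0.51 to 0.31 (adjusted p = 1 in edgeR).

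The related factors moved as little. The E proteins Tcf3, Tcf4 and Tcf12, bHLH partners that TCF21 needs to bind DNA, had log2 fold changes of 0.08, -0.06 and -0.04. Meox2, the paralog of Meox1, was 6.68 ± 1.16 TPM in WT and 6.68 ± 1.49 TPM in WWP2Mut/Mut mice (SD, n = 9 each), with a log2 fold change of 0.03. No gene of either list was called or had an unadjusted p below 0.05 in edgeR.

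Of the receptors, Pdgfra ranged from 1.75 to 4.99 TPM (median 3.56) in WT and from 2.11 to 4.62 TPM (median 2.93) in WWP2Mut/Mut mice. A single WT mouse, 43-3, was above every WWP2Mut/Mut mouse, and none of the latter was below every WT mouse. In edgeR its log2 fold change came to -0.15 (standard error 0.136, 95% interval -0.43 to 0.14, unadjusted p = 0.292, adjusted p = 1). Ddr2 ranged from 1.77 to 3.29 TPM (median 2.53) and from 1.2 to 3.23 TPM (median 2.14), with a log2 fold change of -0.14 (95% interval -0.38 to 0.11, adjusted p = 1 in edgeR). The exons of Pdgfra overlap Gm42802 and Gm42803 on the opposite strand over 4.55% and 1.66% of their bases and those of Ddr2 overlap 3110045C21Rik over 0.972%. The library kit is directional, but whether the counting used strand is not given in the sources used here.

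The ligands of the PDGF receptors were also measured. Of the 7 genes listed for this family, 5 were negative and 2 positive, none was called and none had an unadjusted p below 0.05 in edgeR, and the median log2 fold change was -0.10. Pdgfc, a ligand of PDGFRA, came nearest: 0.667 ± 0.263 TPM in WT against 0.433 ± 0.125 TPM in WWP2Mut/Mut mice (SD, n = 9 each), with a log2 fold change of -0.43 and an unadjusted p of 0.0532. Pdgfa and Pdgfb differed by 0.06 each, and Pdgfrb, the receptor of pericytes, by -0.02. Ddr1, the epithelial paralog of Ddr2, had a log2 fold change of -0.09.

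Of the secreted proteins, Fibin differed most. It ranged from 3.42 to 8.38 TPM (median 5.38, 5.34 ± 1.55, SD, n = 9) in WT mice and from 2.13 to 6.76 TPM (median 3.89, 4.07 ± 1.42, SD, n = 9) in WWP2Mut/Mut mice, a ratio of means of 0.761. WT 43-3 alone was above every WWP2Mut/Mut mouse and 3 WWP2Mut/Mut mice were below every WT mouse, with the rest interleaved. The log2 fold change was -0.47 (standard error 0.137, 95% interval -0.76 to -0.19) with an unadjusted p of 0.00276, the 74th smallest of 24804, and an adjusted p of 0.858 in edgeR. Without covariates and on log2(TPM + 1), the difference was -0.34 (two-sided exact permutation test, p = 0.0764), and in edgeR without covariates it was -0.25 (unadjusted p = 0.155). The exact permutation test gave p = 0.118 with TPM rescaled to the same sum in each mouse.

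Fibin was also read lane by lane, each of the 4 lanes holding mice of both genotypes. In lane 1 the WT mice had 3.68 and 5.81 TPM and the WWP2Mut/Mut mice 3.89 and 2.69 TPM. In lane 3 the WT mice had 8.38 and 6.43 TPM against 4.57 and 5.41 TPM. Lane 3 gave the highest Fibin levels (mean 6.20 TPM) and lane 4 the lowest (3.56 TPM), and the lane terms had an unadjusted p of 0.000713 but an adjusted p of 0.951 in edgeR. Within lanes, the mean was lower in WWP2Mut/Mut mice in 4 of 4, by 0.21 to 0.50 on the log2(TPM + 1) scale, and in lanes 3 and 4 each WT mouse was above each WWP2Mut/Mut mouse. Lane 3, with only 2 mice per genotype, separated the genotypes in this way for all 10 genes, and lane 4 for Fibin only. WT 43-3 was among the WT mice of lane 3. A lower mean in 4 of 4 lanes was also seen for Gsn and Fap. The shares of all genes with these patterns are not given here, so the counts have no background. Without the 5 mice of high atrial level Fibin had a log2 fold change of -0.57 (unadjusted p = 0.00613, adjusted p = 1 in edgeR). Leaving out each mouse in turn gave log2 fold changes of -0.54 to -0.42 with unadjusted p values of 0.000533 to 0.0134 in edgeR.

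**Figure D2:**
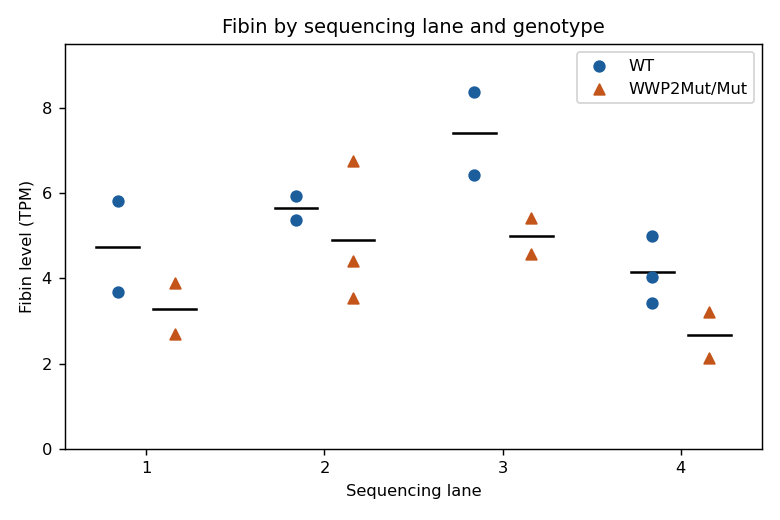
Fibin level in TPM (vertical axis, from 0) for each mouse by sequencing lane (horizontal axis), with WT as blue circles, WWP2Mut/Mut as orange triangles and the mean of each genotype in a lane as a black bar (2 or 3 mice per genotype and lane). The bar of WWP2Mut/Mut mice is the lower in all 4 lanes, and the lanes themselves differ, from a mean of 6.20 TPM in lane 3 to 3.56 TPM in lane 4.

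Dpt ranged from 30.3 to 68.9 TPM (median 47.6) in WT and from 31.8 to 52.8 TPM (median 41.4) in WWP2Mut/Mut mice. Its 3 highest mice were WT, yet so was its lowest, WT 16-1. The edgeR log2 fold change was -0.02 (95% interval -0.26 to 0.23, adjusted p = 1), nearer to 0 than the difference of -0.21 in mean log2(TPM + 1) (two-sided exact permutation test, p = 0.154). After rescaling TPM to the same sum in each mouse, the permutation test gave p = 0.250.

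Fap, a protease that cleaves after proline and is raised on activated fibroblasts, ranged from 0.730 to 2.19 TPM (median 1.79) in WT and from 0.860 to 1.85 TPM (median 1.2) in WWP2Mut/Mut mice. There were 4 WT mice above every WWP2Mut/Mut mouse, and 1 WT mouse, 25-3, below all of them. The difference in mean log2(TPM + 1) was -0.21 (two-sided exact permutation test, p = 0.0890), and the edgeR log2 fold change was -0.13 (95% interval -0.56 to 0.29, adjusted p = 1). Rescaling TPM to the same sum in each mouse gave p = 0.105 in the permutation test. All 5 genes of the FAP-related peptidase list, Fap included, were negative, with Prep at -0.16, Dpp9 at -0.16 and Dpp4 at -0.24, and none had an unadjusted p below 0.05 in edgeR.

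The cytoskeletal genes were the most abundant. Gsn ranged from 318 to 680 TPM (median 478) in WT and from 335 to 507 TPM (median 375) in WWP2Mut/Mut mice, with 3 WT mice above every WWP2Mut/Mut mouse and WT 25-3 lowest of all. Its log2 fold change was -0.16 (standard error 0.151, 95% interval -0.48 to 0.16, adjusted p = 1 in edgeR), and the mean log2(TPM + 1) differed by -0.24 (two-sided exact permutation test, p = 0.0778). That permutation test gave p = 0.137 with TPM rescaled to the same sum in each mouse. Limma on log2(TPM + 1), with the covariates, gave -0.32 (unadjusted p = 0.0342, adjusted p = 0.807).

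Vim ranged from 107 to 170 TPM (median 164) in WT and from 106 to 165 TPM (median 134) in WWP2Mut/Mut mice. Of the WT mice 3 lay at 107 to 115 TPM and 5 at 164 to 170 TPM, and 4 of the latter were above every WWP2Mut/Mut mouse. The log2 fold change was -0.01 (95% interval -0.33 to 0.30, adjusted p = 1 in edgeR). Of the 7 genes of the gelsolin family 4 were negative, and of the 4 intermediate filament genes 2 were, with Des at 0.05 and Nes at 0.03, and none of either list had an unadjusted p below 0.05 in edgeR.

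**Figure D3:**
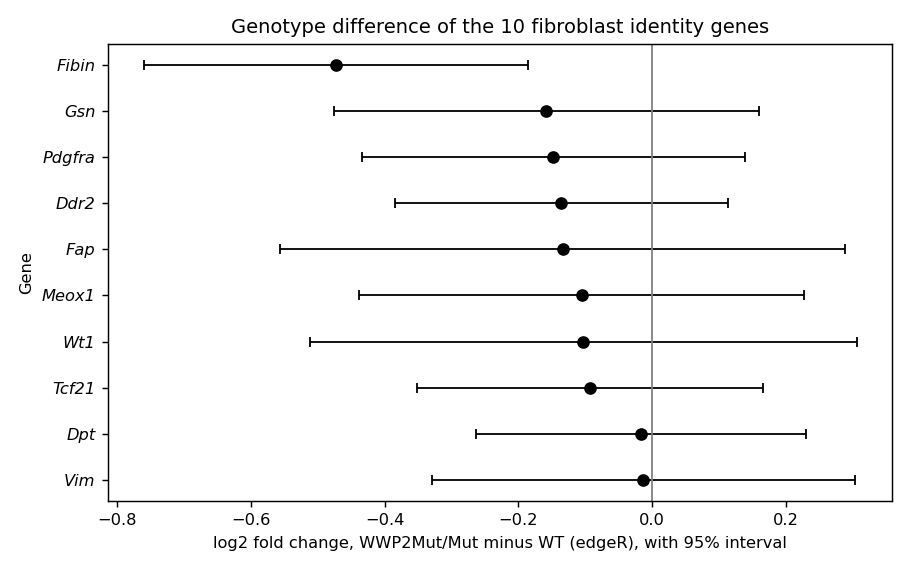
Log2 fold change of WWP2Mut/Mut over WT mice in edgeR (horizontal axis) for each of the 10 genes (vertical axis), with 95% intervals as bars, 9 mice per genotype, RNA concentration and lane as covariates. All 10 points lie below 0, and the interval leaves 0 out for Fibin alone (-0.76 to -0.19).

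The lists of other fibroblast genes were read from the same fit. Of the 28 listed for resting and general fibroblasts, 21 were negative and 7 positive, none was called and none had an unadjusted p below 0.05 in edgeR, and their median log2 fold change was -0.10. Lum, Medag and Dcn had the smallest p, with -0.34, -0.23 and -0.24. Of 20 genes listed for activated fibroblasts 17 were negative, 5 of them at an unadjusted p below 0.05, and 3 were positive, 1 of them at that level (Tagln, 0.48). None was called in edgeR, and the median was -0.22. This list too was chosen with earlier results of these data known, so its counts are descriptions. The smallest p values belonged to the matrix protein genes Thbs4 (-0.75), Ccn2 (-0.62) and Comp (-0.97). Ccn2, which encodes a matricellular protein induced by TGFβ, averaged 56.2 ± 19.4 TPM in WT and 28.6 ± 8.45 TPM in WWP2Mut/Mut mice (SD, n = 9 each).

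Among the epicardial and mesothelial genes, 9 of 12 were negative, 2 of them at an unadjusted p below 0.05 in edgeR (Krt8, -1.43, and Gpm6a, -0.72), and none was called. The cardiomyocyte, endothelial, smooth muscle and pericyte, immune, erythrocyte, Schwann cell and atrial lists had medians of 0.06, 0.03, 0.01, -0.01, 0.17, -0.13 and -0.07, and no gene of these lists was called or had an unadjusted p below 0.05 in edgeR.

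Transcripts of liver and fat, tissues outside the ventricle, were also present at varying levels in the same libraries. All 10 listed liver genes were negative with an unadjusted p below 0.05 in edgeR (median -1.87), although none was called. Their summed level was 28.1 to 444 TPM in WT and 27.5 to 114 TPM in WWP2Mut/Mut mice, and Alb, the defining gene, was at 0 in no mouse. All 6 adipocyte genes were negative as well (median -0.94, 1 at an unadjusted p below 0.05 and none called in edgeR), with sums of 0.05 to 23.6 TPM in WT and 0.220 to 11.7 TPM in WWP2Mut/Mut mice, and Adipoq was at 0 in 3 mice. The part of the fat transcripts in the genotype differences was not tested, and their relation to the members is given further on. WT 45-1 was the highest mouse of both lists and of Gsn, Vim, Fap and Wt1. With the summed liver level as a further covariate, Fibin had a log2 fold change of -0.59 (unadjusted p = 0.00132 in edgeR), and 7 of the 10 identity genes remained negative, Dpt, Vim and Wt1 becoming positive.

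The spread between mice was wide. Over the 18 mice, the highest level was 1.61 times the lowest for Vim, 2.14 times for Gsn and 3.93 times for Fibin. WT 43-3 was the highest mouse for Tcf21, Pdgfra, Dpt, Ddr2, Meox1 and Fibin and above the median of the 18 mice for all 10 genes. WT 16-1 was the lowest for Tcf21, Pdgfra, Dpt and Meox1 and, like WWP2Mut/Mut 53-1, above the median for none. The table of samples lists an RNA concentration of 1.68 ng/μl for WT 43-3, against 88.6 to 320.9 ng/μl for the others. Whether this value is a recording error was not tested, and it entered every fit with RNA concentration as listed. The mean concentration was 110 ng/μl in WT and 175 ng/μl in WWP2Mut/Mut mice, so this covariate is partly shared with genotype. With lane as the only covariate Fibin had a log2 fold change of -0.35 (unadjusted p = 0.0104 in edgeR), and with lane and log2 concentration -0.39 (unadjusted p = 0.0133 in edgeR). Without this mouse and with lane as the only covariate, Fibin had a log2 fold change of -0.35 (unadjusted p = 0.0164 in edgeR).

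The 10 genes varied together over mice. All 45 pairs had a positive Pearson r of log2(TPM + 1), from 0.0454 to 0.836 with a median of 0.526, and 22 pairs had an adjusted permutation p below 0.05 (100000 resamples, two-sided, Benjamini-Hochberg over 45 pairs). Part of this is common to all genes on this scale: over all pairs of 12405 expressed genes the median r was 0.272. On TMM-normalized log2 CPM (counts scaled to library size), where the median over all expressed pairs was 0.00 to 2 decimals, the median over the 45 pairs was 0.327, with 36 positive, and 7 pairs had an adjusted permutation p below 0.05, all 7 of them also among the 22. The share of all expressed pairs that reach such values is not given here for either scale. Lanes hold 4 or 5 mice each, too few for a correlation within a lane. With genotype, lane and RNA concentration removed by a linear model the median r was 0.544. It was 0.599 within WT and 0.381 within WWP2Mut/Mut mice, a difference that was not tested, 0.429 without WT 43-3 and WT 45-1, and 0.461 without the 5 mice of high atrial level.

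Of the 7 pairs, 5 were among Vim, Gsn, Fap and Dpt, led by Vim with Fap (r = 0.836, permutation p = 0.0001, adjusted 0.00075, Spearman rho = 0.843, permutation p = 2e-05, adjusted 0.0003). Its r was 0.845 without the 2 mice farthest from the median of Vim, 0.889 within WT, 0.750 within WWP2Mut/Mut mice, 0.797 without the 5 mice of high atrial level and 0.782 in log2 CPM. Tcf21 with Fibin reached r = 0.831 (permutation p = 2e-05, adjusted 0.000562, rho = 0.827, permutation p = 2e-05, adjusted 0.0003), with 0.840 without the 2 farthest mice, 0.829 within WT, 0.893 within WWP2Mut/Mut mice, 0.765 without the 5 mice and 0.735 in log2 CPM. Dpt with Meox1 had r = 0.800 (permutation p = 4e-05, adjusted 0.000562, rho = 0.744, permutation p = 0.00055, adjusted 0.00305), which became 0.630 without the 2 mice farthest from the median of Dpt, 0.770 without the 5 mice and 0.642 in log2 CPM.

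Tcf21 with Pdgfra, both markers of resident fibroblasts, had r = 0.815 (permutation p = 5e-05, adjusted 0.000562, rho = 0.750, permutation p = 0.0006, adjusted 0.00305). It was 0.692 without the 2 farthest mice, 0.918 within WT, 0.615 within WWP2Mut/Mut mice and 0.773 without the 5 mice. In log2 CPM it was 0.576, with an adjusted permutation p of 0.0691. Wt1 had the lowest median r with the other 9 genes, 0.222 (0.01 in log2 CPM), and its highest value with Ddr2 (r = 0.597, permutation p = 0.00882, adjusted 0.0209, rho = 0.695, permutation p = 0.00168, adjusted 0.0063, 0.577 without the 5 mice and 0.327 in log2 CPM). Ddr2 itself had a median r of 0.437 in log2(TPM + 1) and -0.03 in log2 CPM.

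**Figure D4:**
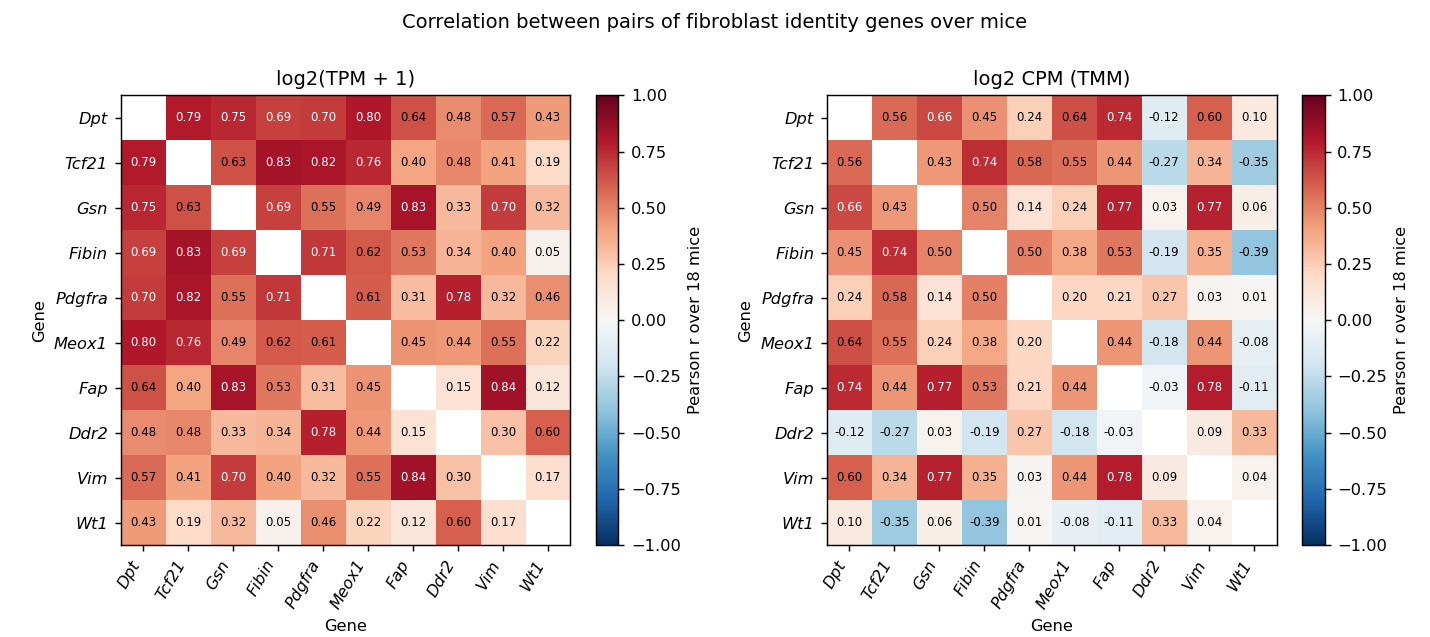
Pearson r over 18 mice for each pair of the 10 genes (both axes), in log2(TPM + 1) on the left and in TMM-normalized log2 CPM on the right, with colour from -1 (blue) to 1 (red) and genes in order of their median r on the left. All pairs are positive on the left (median 0.526), while on the right 36 of 45 are positive (median 0.327) and the rows of Ddr2 and Wt1 are pale or blue.

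The 10 genes were also set against summed lists of genes outside the group. All but Ddr2 and Wt1, 8 of 10, followed the summed level of the 28 other fibroblast genes with an adjusted permutation p below 0.05 by Pearson and by Spearman (Benjamini-Hochberg over 20 relations), with r from 0.599 for Pdgfra to 0.868 for Dpt. Over the 12368 expressed genes outside both groups the median r with this sum was 0.30, and 5.76% of them reached 0.599 or more. With the members in log2 CPM the r of these 8 ran from 0.464 to 0.729, that of Gsn going from 0.824 to 0.486 and that of Vim from 0.743 to 0.464. On that scale the median over expressed genes was -0.0025 and 3.06% of them reached 0.464. Without the 5 mice of high atrial level the r of the 8 ran from 0.385 for Pdgfra to 0.856 for Gsn. Dpt had r = 0.868 (permutation p = 2e-05, adjusted 0.0002, rho = 0.858, permutation p = 3e-05, adjusted 0.0002), with 0.814 without the 2 farthest mice and 0.729 with Dpt in log2 CPM. Fibin had r = 0.816 (permutation p = 3e-05, adjusted 0.0002, rho = 0.827, permutation p = 3e-05, adjusted 0.0002), with 0.788 without the 2 farthest mice, 0.957 within WT and 0.626 within WWP2Mut/Mut mice. Whether the 2 exceptions differ from the 8 was not tested. They were Ddr2 (r = 0.348, permutation p = 0.157, adjusted 0.242, rho = 0.243, permutation p = 0.331, adjusted 0.473, 0.328 without the 2 farthest mice) and Wt1 (r = 0.146, permutation p = 0.566, adjusted 0.596, rho = 0.0836, permutation p = 0.741, adjusted 0.780, 0.215 without them). Of the 10 genes, 4 passed the same threshold by Pearson with the epicardial and mesothelial list, namely Fap (r = 0.778), Gsn (0.675), Vim (0.565) and Dpt (0.518), and all but Vim by Spearman. The adjusted permutation p was 0.000667, 0.00416, 0.0287 and 0.0447 by Pearson and 0.00127, 0.00787, 0.118 and 0.0188 by Spearman, with rho of 0.761, 0.664, 0.437 and 0.604. Over the other expressed genes the median r with this list was -0.10 and 5.36% of them reached 0.518. With genes in log2 CPM the median was -0.02 and 0.0404% of them reached 0.799, the lowest value of Fap, Gsn and Dpt on that scale. Without the 5 mice of high atrial level the r was 0.731 for Fap, 0.608 for Gsn, 0.482 for Vim and 0.536 for Dpt. With these 4 genes in log2 CPM and the lists still as summed TPM, r was higher with the epicardial list than with the fibroblast list. It was 0.799 against 0.621 for Fap, 0.820 against 0.486 for Gsn, 0.700 against 0.464 for Vim and 0.854 against 0.729 for Dpt, a difference that was not tested. For Wt1 no relation to the epicardial list was detected (r = 0.150, permutation p = 0.550, adjusted 0.596, rho = 0.137, permutation p = 0.584, adjusted 0.649, 0.0191 without the 2 farthest mice), whose sum came mostly from Rarres2 at 32.8 TPM in WT and 31.4 TPM in WWP2Mut/Mut mice.

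Relations were found with lists of other cells as well. Here too, values in log2 CPM have the member on that scale and the list still as summed TPM. Over 10 further lists, taken as 100 relations and adjusted over these, the smooth muscle and pericyte list gave 2 members by both coefficients, Tcf21 (r = 0.718, permutation p = 0.00093, adjusted 0.0186, rho = 0.690, permutation p = 0.00227, adjusted 0.0411) and Pdgfra (r = 0.697, permutation p = 0.0014, adjusted 0.0233, rho = 0.668, permutation p = 0.00329, adjusted 0.0411). Without the 2 farthest mice they had 0.649 and 0.679, without the 5 mice of high atrial level 0.672 and 0.643, and in log2 CPM 0.408 and 0.513. Of the other expressed genes 28.3% reached 0.697 with this list (median 0.53), and 31.7% reached 0.408 in log2 CPM, so that these values are common among all genes. Most of this sum came from the intermediate filament gene Des. It averaged 685 TPM in WT and 647 TPM in WWP2Mut/Mut mice, where the list averaged 942 and 881 TPM. The immune list gave 2, Meox1 (r = 0.732, permutation p = 0.00045, adjusted 0.0130, rho = 0.767, permutation p = 0.00028, adjusted 0.0280) and Tcf21 (r = 0.672, permutation p = 0.00257, adjusted 0.0286, rho = 0.678, permutation p = 0.00279, adjusted 0.0411). Without the 2 farthest mice they had 0.665 and 0.521, without the 5 mice 0.772 and 0.691, and in log2 CPM 0.739 and 0.708, for Meox1 above its 0.639 with the fibroblast list. Here 1.18% of the other expressed genes reached 0.672 (median 0.22), and 0.226% reached 0.708 in log2 CPM. C1qa and C1qb made up most of the immune sum, at 57.8 and 58.9 TPM in WT mice, where the list averaged 150 TPM. The activated fibroblast list gave 3, Meox1 (r = 0.820, 0.663 without the 2 farthest mice, 0.728 without the 5 mice and 0.728 in log2 CPM), Vim (0.722, 0.660, 0.737 and 0.333) and Fap (0.625, 0.576, 0.517 and 0.476), where 4.45% of the other expressed genes reached 0.625 and 6.97% reached 0.333 in log2 CPM. The Schwann cell list gave 1, Wt1 (0.677, 0.512, 0.583 and 0.544), where 1.66% of the other expressed genes reached 0.677. For these 4 relations rho was 0.666, 0.740, 0.695 and 0.691, and the adjusted permutation p was 0.005, 0.0130, 0.0491 and 0.0235 by Pearson and 0.0411, 0.0290, 0.0411 and 0.0411 by Spearman. By Pearson only, Dpt passed with the activated fibroblast list (r = 0.745, adjusted permutation p 0.0130, 0.0706 by Spearman) and the Schwann cell list (0.676, 0.0235 and 0.136). Fibin did so with the smooth muscle and pericyte list (0.627, 0.0491 and 0.177). In the activated fibroblast list, Acta2 and Tagln averaged 96.4 and 37.1 TPM in WT mice, where the list averaged 277 TPM. None passed for the endothelial, cardiomyocyte, erythrocyte, adipocyte and liver lists or for the atrial list without Nppa, with which Dpt had the highest r (0.588). Some of these relations were stronger in other settings, which were not tested. Vim with the endothelial list had r = 0.431, 0.621 without the 5 mice and 0.722 in log2 CPM. With the adipocyte list Fap had 0.488, 0.811 and 0.419, and Vim 0.347, 0.615 and 0.121. Whether a member followed one list more closely than another was not tested.

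The genes nearest to each of the 10 over all mice were taken by Spearman rho of log2(TPM + 1), as a description. They were Tlr2, Ccdc80 and Fam32a for Tcf21 (rho 0.907 to 0.928) and Trappc12, Igfbp5 and Cpe for Pdgfra (0.961 to 0.974). For Fibin they were Zbtb8a, the small proteoglycan gene Lum and Srpx (0.889 to 0.919), and for Gsn Tgfbi, Folr2 and the fibril-associated collagen gene Col14a1 (0.870 to 0.899). Vim lay nearest to Ssbp4, the gelatinase gene Mmp2 and Aebp1 (0.907 to 0.934), and Fap to Rcn3, D630003M21Rik and the fibronectin gene Fn1 (0.878 to 0.903). Dpt lay nearest to Rnase4, Arpc5 and Ttc9 (0.890 to 0.936), Meox1 to Tubb5, Rhoc and Mblac1 (0.886 to 0.924), Wt1 to Slc45a3, Irak2 and Hsph1 (0.897 to 0.904) and Ddr2 to Zc3h13, Actn1 and Lpp (0.961 to 0.977). In log2 CPM, none of the 3 neighbours of Ddr2 stayed among its 100 nearest genes, whereas all 3 of Fibin and all 3 of Wt1 did.

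Technical measures were tested in the same way as genotype. Lane and RNA concentration called no gene in edgeR (0% of genes tested for either), and at an unadjusted p below 0.05 lane gave 3 of the 10 (Fibin, Wt1 with 0.0311 and Tcf21 with 0.0367) against 3.77% of all genes tested, and RNA concentration gave 0 of 10 against 3.15%. The gene body coverage fraction, which the table of samples lists without a definition, lay between 0.0288 and 0.0540. It called 30.9% of all genes tested and 52.5% of the expressed genes, against 3 of the 10 identity genes, all of which were expressed. Per 0.01 of this fraction, Pdgfra fell by 0.20 on the log2 scale (adjusted p = 0.0215), Gsn rose by 0.23 (adjusted p = 0.0228) and Vim rose by 0.24 (adjusted p = 0.0137) in edgeR. Tcf21 had -0.01 per 0.01 (adjusted p = 0.970). On log2(TPM + 1), the scale of the relations between members, a lower level went with a higher fraction in Tcf21 (r = -0.734, rho = -0.653), Pdgfra (r = -0.793, rho = -0.785) and Ddr2 (r = -0.613, rho = -0.672, n = 18 mice). Fibin (r = -0.520), Meox1 (-0.513), Dpt (-0.460) and Wt1 (-0.320) were negative too, while Gsn had -0.121, Vim 0.140 and Fap 0.192. Over expressed genes the median r on this scale was -0.57, and 54.1% of them lay below -0.5. The part of the fraction in the relations between members in TPM was not tested beyond its removal as a covariate. With the fraction as a further covariate all 10 genotype differences remained negative and that of Fibin was -0.47 (unadjusted p = 0.00168).

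**Figure D5:**
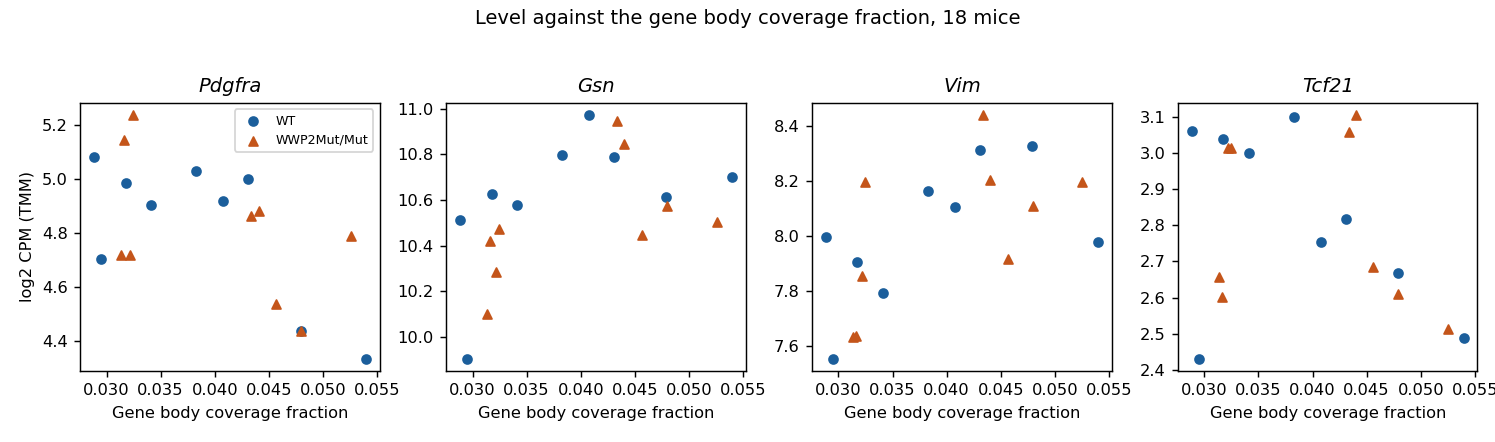
TMM-normalized log2 CPM (vertical axes, scaled per gene) of Pdgfra, Gsn, Vim and Tcf21 against the gene body coverage fraction of the library (horizontal axes, 0.0288 to 0.0540) in 9 WT mice (blue circles) and 9 WWP2Mut/Mut mice (orange triangles). Pdgfra is lower and Gsn and Vim are higher in libraries with a higher fraction, with fitted slopes of -0.20, 0.23 and 0.24 per 0.01, and the genotypes are mixed along the axis.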

How the data were processed

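RNA from the left ventricle of 18 AngII-treated mice was sequenced (9 per genotype, from the genotype label). The authors aligned reads to m38 (Ensembl 89) with STAR 2.5.2b, quantified genes with RSEM 1.2.31, removed rRNA and mitochondrial genes and deposited expected counts (5.11% of values not whole) and TPM. The deposited table of samples gives the lane, the RNA concentration and a fraction of gene body coverage, without defining the last.

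Expected counts were rounded and fitted with edgeR 4.0.16 (TMM, glmQLFit, glmQLFTest; R 4.3.3) with lane and centred RNA concentration in the model. The 24804 genes whose counts totalled more than 1 were tested, with Benjamini-Hochberg adjustment over all of them. Alternatives were DESeq2 1.42.0, limma 3.58.1 on log2(TPM + 1) and log2(TPM + 0.1), other size factors, filters and covariates, and each mouse left out. Single values were compared with exact permutation tests over 48620 divisions, and correlations with scipy 1.17.1 and numpy 2.4.6 under Python 3.11.15. Scripts were tested on simulated data. Symbols were matched for 51242 of 51435 identifiers (99.6%). Members and lists were chosen with earlier results of these data known, including that of Fibin. Genes named are the 10 members, Wwp2, for each member the 3 nearest genes, and up to 3 genes of each list with the smallest p, with others of a list named beside its count after their values were seen. The relations of members to summed lists and the alternatives on atrial genes were added after seeing the data. The study's text gives 8 or 9 mice per genotype, and all 18 were used. Replicates are separate mice.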

Additional observations from a re-analysis of the deposited data

How the results depend on the processing

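No member was called under any of the alternatives run, and the median log2 fold change of the 10 members was negative in each. The number of genes called over the whole table was 1, and became 4 with DESeq2 and 1 to 2 with 1 mouse left out, the 2 being reached without WWP2Mut/Mut 1-2 or WT 84-2. Without the 5 mice of high atrial level it was 0 in edgeR (510 of 24087 genes at an unadjusted p below 0.05, Wwp2 with an adjusted p of 0.205), 5 members were negative with a median of -0.01, and Dpt was 0.0692, Vim 0.0608, Ddr2 0.00484, Fap 0.00277 and Wt1 0.134. Elsewhere, Vim was 0.010 without covariates, and with the liver list as a covariate Dpt was 0.0698, Vim 0.0383 and Wt1 0.109. With 1 mouse left out in turn, Dpt ranged from -0.125 to 0.0781, Vim from -0.0819 to 0.0381, Wt1 from -0.212 to 0.0271 and Fibin from -0.54 to -0.42, the median of the members from -0.16 to -0.06, and the number of negative members from 7 to 10. Pdgfra reached an unadjusted p below 0.05 in 1 of these 18 fits. Fibin missed an unadjusted p of 0.05 without covariates (-0.25) and with RNA concentration only (-0.36). The median r of the 45 pairs was 0.470 to 0.600 with 1 mouse left out and moved to 0.327 in log2 CPM, where 7 pairs in place of 22 had an adjusted p below 0.05. Using log2(TPM + 0.1) shifted the median of all genes to -0.11 and that of the members to -0.29. Chosen after seeing the data were log2 RNA concentration as covariate (Fibin -0.39), lane only without WT 43-3, removal of gene body coverage over all mice (median r 0.640), leaving out WT 43-3 and WT 45-1 (median r 0.429), and the atrial sum without Nppa, as a covariate or for leaving out mice above 10 times its median. Leaving out mice by the whole liver or atrial sum was not run, since no mouse exceeded 10 times the median. Nppa makes up most of the atrial sum in all mice but WT 45-1, where the other atrial genes gave 665 of 1018 TPM. No paired analysis was possible because the mouse numbers of the genotypes differ. With 9 mice against 9 the 95% intervals of the members were wide, from -0.26 to 0.23 for Dpt to -0.56 to 0.29 for Fap.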
